A study of Oryza sativa with 8 samples.

Results

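The genes described here are 8 potassium transport genes of rice, namely the inward channel gene AKT1, 6 genes of the HAK transporter family (HAK1, HAK5, HAK7, HAK10, HAK16 and HAK21) and a gene for a SKOR-type outward channel. They were chosen by identifier, and all 8 were found among the 55797 genes placed at a single locus in every library. RNA was sequenced from roots and leaves of 2-week-old seedlings of the cultivar Nipponbare raised in liquid culture. Seedlings that received 150 mmol NaCl (the labels give an amount without a volume) and seedlings kept in normal medium were both collected after 24 hours. The groups are root salt, root control, leaf salt and leaf control, with 2 libraries each that the protocols call biological replicates. Root and leaf are taken from the sample titles, because the tissue field reads shoot for the root libraries and seedling for the leaf libraries. The labels do not say how many plants entered a library.

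Plants accumulate potassium as the main cation of the cytosol. AKT1 forms a voltage-gated channel through which root cells take up potassium, and HAK transporters carry potassium across membranes against steep gradients, with HAK1 and HAK5 serving uptake when potassium is scarce. SKOR, named in Arabidopsis, opens when the membrane is depolarised and releases potassium into the xylem, and salt is known both to depolarise root cells and to compete with potassium uptake. Transcript levels do not report channel activity, which depends on phosphorylation and on the membrane potential.

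Per the file loci (1-based, build not given in the sources used here), AKT1 (LOC_Os01g45990) lies on chromosome 1 from 26119708 to 26126165 and HAK5 (LOC_Os01g70490) on chromosome 1 from 40825681 to 40830301. HAK16 (LOC_Os03g37840) lies on chromosome 3 from 21002792 to 21007629 and HAK21 (LOC_Os03g37930) on the same chromosome from 21060413 to 21064968. HAK1 (LOC_Os04g32920) lies on chromosome 4 from 19886674 to 19892492. The SKOR-type channel gene (LOC_Os06g14030) lies on chromosome 6 from 7799073 to 7806571, and HAK10 (LOC_Os06g42030) on chromosome 6 from 25235281 to 25242965. HAK7 (LOC_Os07g47350) lies on chromosome 7 from 28312108 to 28317670. The names AKT1, HAK1, HAK5, HAK7, HAK10 and HAK16 also stand in the RefSeq gene table of assembly ASM3414082v1, and for these 6 names the chromosome was the same. The RefSeq gene of HAK10 spans 4870 bases against 7685 bases of the deposited locus, which also overlaps 1 neighbouring locus, so the level of HAK10 rests on a gene model that differs between sources.

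Levels are FPKM, fragment numbers corrected for transcript length and for library size. Read as counting error only, the deposited confidence bounds imply between 9060000 and 10700000 fragments per library. Changes are differences of log2(FPKM + 1), tested with limma over the 23776 genes that reached 1 FPKM in at least 2 libraries. This scale understates the change of genes with low levels. A gene rose, fell or differed where the Benjamini-Hochberg adjusted p over these genes was under 0.05. By this filter 7 of the 8 genes were tested. HAK21 reached 1 FPKM in 1 library and was not tested, and HAK5 passed only through its leaf control libraries. Because these are whole roots and leaves, fewer cells of a type and less RNA per cell cannot be told apart. Root control replicate 1 held more leaf transcripts than the other root libraries. Over 189 genes abundant in leaf, its median level was 1.20% of that in leaf controls, against 0.265% to 0.370% in the other 3.

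Salt changed AKT1 and the SKOR-type channel in opposite directions, and each of them in opposite directions in root and leaf. In root, AKT1, HAK1 and HAK16 rose, while HAK7 and the SKOR-type channel fell. In leaf, the SKOR-type channel rose, and AKT1 and HAK1 fell. HAK10 and HAK5 passed the threshold in neither tissue. The 3 of 7 tested members that rose in root compare with 29.1% of all tested genes, and the 2 that fell with 14.4%. In leaf, 1 of 7 rose, against 14.8% of all tested genes, and 2 of 7 fell, against 18.9%. The median change of the 7 in root, 0.34, was the value of HAK5, which was not called, beside 0.13 for all tested genes. It was 0.86 with a pseudocount of 0.1 in place of 1 and 0.16 with 5, so no weight is placed on it. In leaf the median was -0.10, the value of HAK7, beside -0.05 for all tested genes.

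**Figure D1:**
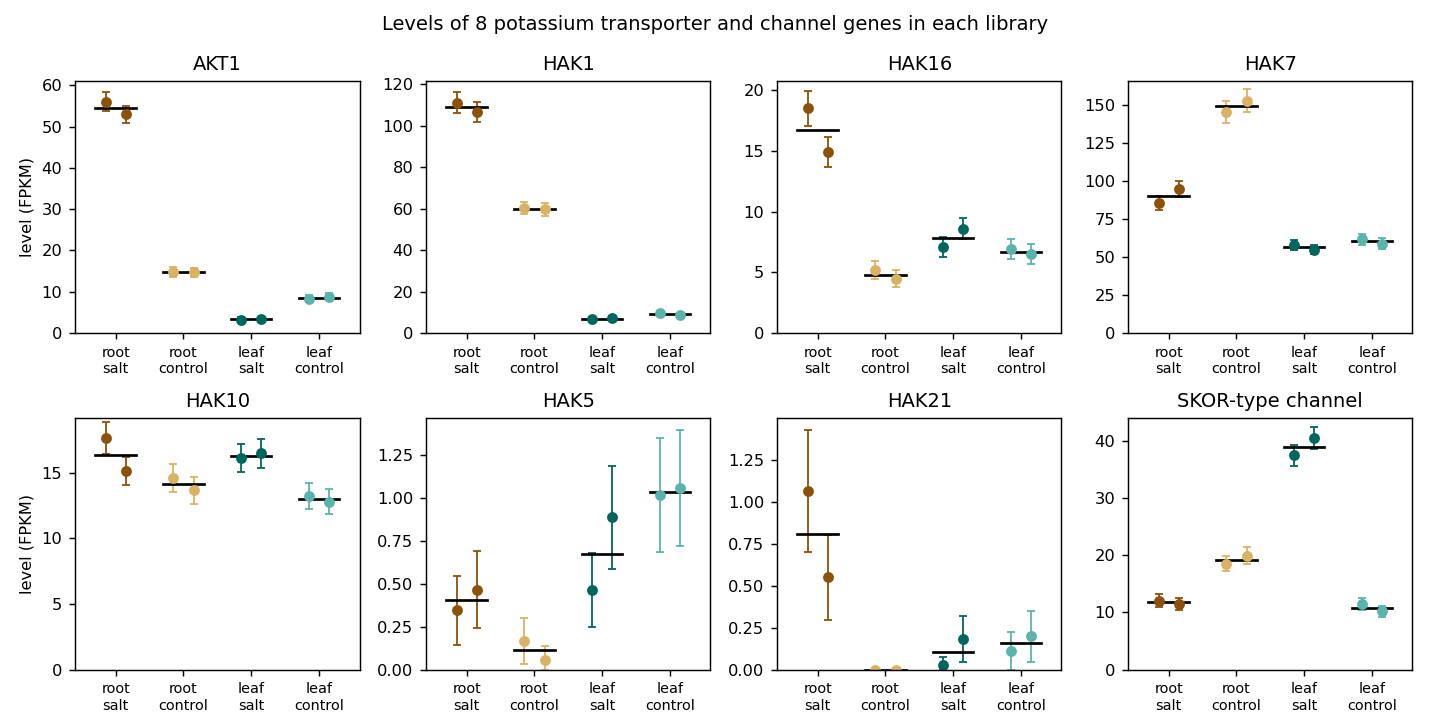
Level in FPKM (vertical axes, starting at 0) of the 8 genes in each of the 8 libraries. Points are libraries, thin bars are the deposited confidence bounds and horizontal lines are group means. AKT1 is highest in root salt (53.0 and 56.0 FPKM), and the SKOR-type channel is highest in leaf salt (37.4 and 40.4 FPKM).

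AKT1, the inward channel, had 56.0 and 53.0 FPKM in the root salt libraries, against 14.8 and 14.7 FPKM in the root controls. The groups were far apart, and the 2 controls differed by less than 1 FPKM. The mean level was 3.69-fold higher with salt (54.5 ± 2.18 FPKM against 14.8 ± 0.101 FPKM, SD, n = 2 each), a log2 change of 1.82 ± 0.085 (SE, limma adjusted p = 6.71e-05). By this change AKT1 ranked 685 of 23776 tested genes from the top. In leaf, AKT1 had 3.26 and 3.41 FPKM with salt, against 8.35 and 8.84 FPKM in controls. The leaf groups did not overlap either, and the mean with salt was 0.388 times that of controls. The log2 change in leaf was -1.15 ± 0.085 (SE, limma adjusted p = 0.000188). It was -0.71 with a pseudocount of 5 in place of 1, and still passed the threshold. The difference between the changes, root minus leaf, was 2.96 ± 0.120 (SE, limma adjusted p = 0.000111).

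HAK1, a high-affinity uptake transporter, had 111 and 107 FPKM in root salt libraries, against 60.3 and 59.8 FPKM in root controls. It was the most abundant of the 8 transcripts in salt-treated roots, and the 2 groups were separate. Its mean was 1.82-fold higher with salt, a log2 change of 0.85 ± 0.091 (SE, limma adjusted p = 0.000625). The bounds imply 2035 and 1985 fragments with salt, against 1533 and 1431 in controls, a smaller rise than in FPKM. In leaf HAK1 was much lower, with 6.73 and 7.28 FPKM under salt, against 9.82 and 8.53 FPKM in controls. This fall of 0.34 on the log2 scale (SE 0.091, limma adjusted p = 0.0267) was small. The call was lost without leaf control replicate 1 (limma adjusted p = 0.125), without leaf salt replicate 1 (0.127) and without leaf salt replicate 2 (0.0632). It was also lost after quantile normalization (0.0638) and in a model of the leaf libraries alone (0.107). The changes in root and leaf differed by 1.19 ± 0.129 (SE, limma adjusted p = 0.00133).

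HAK16, a transporter that serves potassium uptake and its movement from root to shoot in rice, had 18.5 and 14.9 FPKM in root salt libraries, against 5.17 and 4.45 FPKM in root controls. The 2 salt libraries differed more from each other than the controls did, yet both lay well above them. The mean was 3.47-fold higher with salt, a log2 change of 1.60 ± 0.147 (SE, limma adjusted p = 0.000361). In leaf HAK16 had 7.08 and 8.61 FPKM with salt, against 6.92 and 6.51 FPKM in controls. The 4 leaf values lay close together, and the log2 change of 0.19 ± 0.147 did not pass the threshold (SE, limma adjusted p = 0.369). The difference between the tissues in this change did pass it, at 1.41 ± 0.208 (SE, limma adjusted p = 0.00373).

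HAK21, a transporter linked to salt tolerance in rice, lies on chromosome 3 with 52.8 kb between its locus and that of HAK16. It had 1.06 and 0.551 FPKM in the root salt libraries and was listed at 0 in both root control libraries. In leaf it had 0.0258 and 0.182 FPKM with salt, against 0.113 and 0.200 FPKM in controls. Both salt-treated root libraries were thus above all other libraries, although the level stayed low. The bounds imply about 34.2 and 18.9 fragments in root salt and between 1 and 7 in the leaf libraries. No fold is given against a group listed at 0. When no filter on low values was set, 36398 genes were tested and HAK21 was higher in salt-treated roots (limma adjusted p = 0.0117). It was not called in leaf (limma adjusted p = 0.853), and the difference between root and leaf changes passed the threshold (limma adjusted p = 0.0355). Under salt it was higher in root than in leaf in the same fit (limma adjusted p = 0.0104). Both root controls were listed at 0 and so add no spread to this fit, and little weight is placed on its adjusted p. Of the 9 identifiers between HAK16 and HAK21, 2 were tested, and their log2 changes in root were -1.01 and -0.26. Whether these 2 changes passed the threshold is not given here.

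HAK5, a high-affinity transporter, was low throughout. In root it had 0.345 and 0.467 FPKM with salt, against 0.166 and 0.0580 FPKM in controls. The root groups did not overlap, but the values rest on about 11.9 to 17.0 implied fragments with salt and 2.0 to 6.0 in controls. The log2 change of 0.34 ± 0.162 did not pass the threshold (SE, limma adjusted p = 0.137). With a pseudocount of 0.1 it was 1.29 (limma adjusted p = 0.0497). In leaf HAK5 had 0.465 and 0.887 FPKM with salt, against 1.02 and 1.06 FPKM in controls, a log2 change of -0.29 ± 0.162 (SE, limma adjusted p = 0.217). It was -0.11 without leaf salt replicate 1, -0.48 without leaf salt replicate 2, -0.16 with quantile normalization, -0.61 with a pseudocount of 0.1 and -0.09 with 5, and none of these passed the threshold. The difference between root and leaf changes was 0.63 ± 0.229 (SE, limma adjusted p = 0.0769), and without leaf salt replicate 2 it was 0.81. HAK5 was tested only because its leaf controls reached 1 FPKM, which favours a fall in leaf and a positive difference. Its leaf change and this difference are therefore no support for a pattern. The higher of the root controls was replicate 1, the library with the larger share of leaf transcripts, and the part of those transcripts in this value was not tested.

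**Figure D2:**
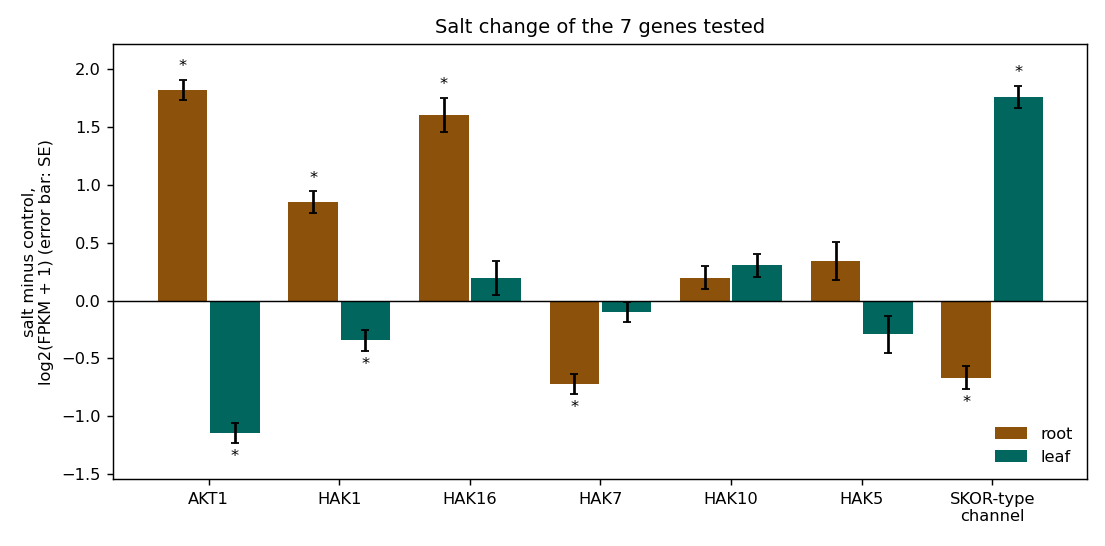
Salt minus control on the log2(FPKM + 1) scale for the 7 tested genes, in root and in leaf. Bars are limma estimates, error bars are SE, and asterisks mark adjusted p under 0.05. AKT1 stands at 1.82 in root and -1.15 in leaf, and the SKOR-type channel at -0.67 in root and 1.75 in leaf.

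HAK7, a HAK family member, was the most abundant of the 8 transcripts in root controls and in both leaf groups. It had 85.7 and 94.7 FPKM in root salt libraries, against 146 and 153 FPKM in root controls. The groups were separate, and the mean with salt was 0.605 times that of controls. The bounds imply 1324 and 1395 fragments with salt, against 1623 and 1645 in controls, a smaller fall than in FPKM. The cause of this gap was not tested. The log2 change was -0.72 ± 0.086 (SE, limma adjusted p = 0.00094). In leaf HAK7 had 57.8 and 55.0 FPKM with salt, against 61.8 and 58.9 FPKM in controls, a log2 change of -0.10 ± 0.086 that did not pass the threshold (SE, limma adjusted p = 0.446). Root and leaf changes differed by -0.63 ± 0.122 (SE, limma adjusted p = 0.00965).

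HAK10, which in rice is known as a transporter of the vacuolar membrane, was the most even of the 8 across groups. It had 17.6 and 15.1 FPKM in root salt libraries, against 14.6 and 13.7 FPKM in root controls. The root groups were next to each other, with a log2 change of 0.20 ± 0.099 (SE, limma adjusted p = 0.157). This value was 0.09 without root salt replicate 1, 0.30 without root salt replicate 2, 0.03 with scaling to the 75th percentile and 0.0043 with quantile normalization, and passed the threshold in none of them. In leaf it had 16.1 and 16.5 FPKM with salt, against 13.2 and 12.8 FPKM in controls. The leaf groups were apart by more than the spread within them, and the log2 change of 0.30 ± 0.099 missed the threshold by little (SE, limma adjusted p = 0.0549). It passed in 5 of 16 alternatives, among them a model of the leaf libraries alone (limma adjusted p = 0.0423) and the fits without root salt replicate 1 (0.0377) or 2 (0.0371), which change the shared spread. The difference between root and leaf changes was -0.11 ± 0.140 (SE, limma adjusted p = 0.595).

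The SKOR-type channel gene, for potassium release, had 12.1 and 11.4 FPKM in root salt libraries, against 18.5 and 19.9 FPKM in root controls. The mean with salt was 0.611 times that of controls, a log2 change of -0.67 ± 0.096 (SE, limma adjusted p = 0.00205). In leaf it had 37.4 and 40.4 FPKM with salt, against 11.5 and 10.2 FPKM in controls. The leaf groups were far apart, and the mean was 3.59-fold higher with salt. The log2 change in leaf was 1.75 ± 0.096 (SE, limma adjusted p = 7.27e-05), which ranked 410 of 23776 from the top. The difference between the changes, root minus leaf, was -2.42 ± 0.136 (SE, limma adjusted p = 0.000254) and ranked 124 from the bottom.

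Among the 7 tested members, the salt change was more positive in root than in leaf for 3 (AKT1, HAK1 and HAK16) and more negative for 2 (HAK7 and the SKOR-type channel). Of all tested genes, 23.1% had a more positive change in root and 9.71% a more negative one. The median of this difference over the members tested, 0.63, was again the value of HAK5, beside 0.19 for all tested genes. It was 1.24 with a pseudocount of 0.1 and 0.17 with 5, where all tested genes had 0.22 and 0.12. The split over all genes depended on the scaling. Of all calls in root, 67.0% were higher as deposited, 51.2% with libraries scaled to their 75th percentile and 47.2% with quantile normalization. For the difference between tissues it was 70.4%, 55.0% and 48.4%, and for root against leaf under salt 66.1%, 58.5% and 55.2%, in the same order. AKT1, HAK1, HAK16, HAK7 and the SKOR-type channel kept the direction and call of their root change and of the difference between tissues under both scalings. In root, scaling to the 75th percentile moved the median of all genes by 0.127, and AKT1 then had a log2 change of 1.64 and HAK1 one of 0.67.

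The 2 channels together show the opposed pattern. The level of AKT1 was 4.64 times that of the SKOR-type channel in each of the 2 root salt libraries, against 0.801 and 0.737 times in root controls. In leaf it was 0.0872 and 0.0844 times with salt, against 0.726 and 0.866 times in controls. In every control library of either tissue the outward channel was thus the more abundant of the pair by a small margin. With salt, the outward channel was 11.5 and 11.8 times as abundant as AKT1 in leaf, while AKT1 was the more abundant in root. FPKM is scaled by length, so the levels of both genes can be set side by side as far as their gene models hold. Annotation and shared reads are uncertain here, so the small margin in controls is not secure.

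**Figure D3:**
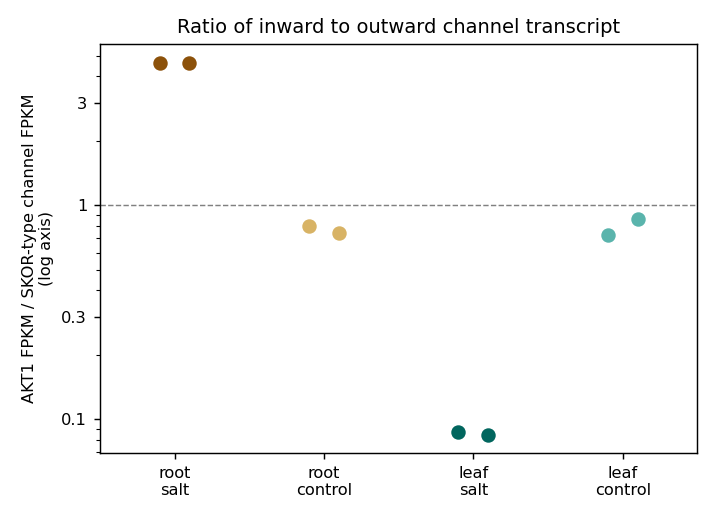
Ratio of AKT1 FPKM to SKOR-type channel FPKM (vertical log axis) in each of the 8 libraries, with a dashed line where both are equal. The root salt libraries lie at 4.64, the leaf salt libraries at 0.0844 and 0.0872, and all 4 controls between 0.726 and 0.866.

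The summed level of the 6 HAK genes changed little while its make-up shifted in root. It was 235 and 233 FPKM in root salt libraries, against 226 and 231 FPKM in root controls. HAK1 held 47.4% and 46.0% of that sum with salt, against 26.7% and 25.9% in controls. HAK7 held 36.6% and 40.7% with salt, against 64.5% and 66.2% in controls. HAK1 thus stood above HAK7 in both salt libraries and below it in both controls. HAK16 held 7.89% and 6.40% with salt, against 2.29% and 1.93% in controls. In leaf the sum was 88.3 and 88.4 FPKM with salt, against 92.9 and 88.0 FPKM in controls. HAK7 held between 62.2% and 66.9% in all 4 leaf libraries. These sums are descriptions and carry no test. In root, the implied fragments of HAK1 and HAK7 changed less than their FPKM. The part of this gap in the shift was not tested.

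**Figure D4:**
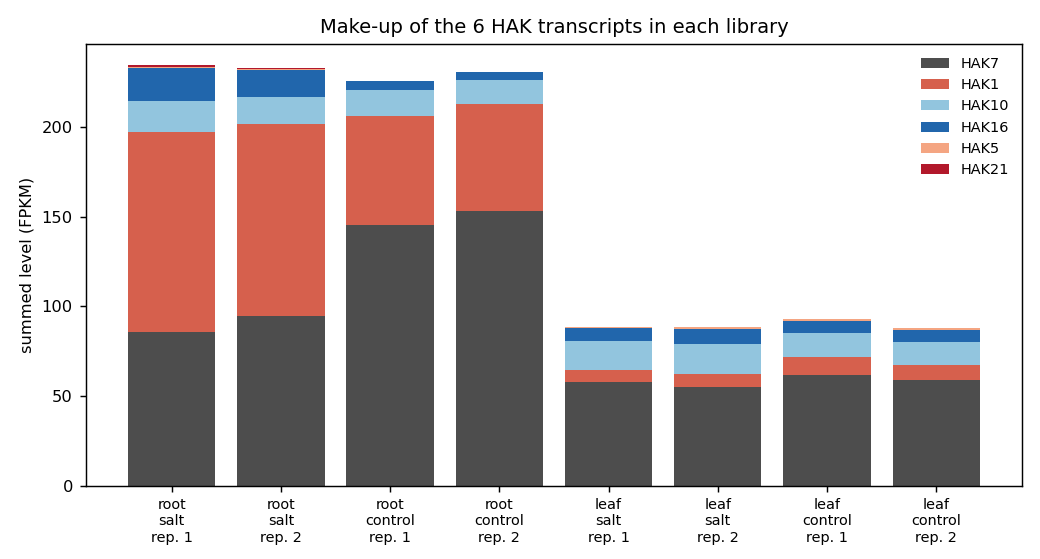
Summed FPKM of the 6 HAK genes in each library, stacked by gene (vertical axis from 0). In the 4 root libraries the total lies between 226 and 235 FPKM, and HAK1 forms 47.4% and 46.0% of it with salt, against 26.7% and 25.9% in controls.

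Without salt, 4 of the 7 tested members were higher in root (HAK1, HAK7, the SKOR-type channel and AKT1) and 2 were lower (HAK5 and HAK16). Of all tested genes 39.1% were higher in root controls and 28.3% lower. HAK1 had 6.54 times the leaf level, with a mean of 60.0 ± 0.399 FPKM in root and 9.18 ± 0.913 FPKM in leaf (SD, n = 2 each). On the log2 scale this was 2.59 ± 0.091 (SE, limma adjusted p = 9.3e-07). HAK7 had 2.47 times, the SKOR-type channel 1.77 times and AKT1 1.72 times the leaf level. Their log2 differences were 1.29, 0.77 and 0.72, with limma adjusted p of 1.52e-05, 0.000367 and 0.000285. For HAK7 the bounds imply 1623 to 1645 fragments in root controls and 1138 to 1181 in leaf controls, a smaller difference than in FPKM. For HAK1 they imply 1431 to 1533 in root controls and 325 to 362 in leaf controls, also a smaller difference than in FPKM.

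HAK5 was lower in root controls, with 0.112 ± 0.0763 FPKM in root and 1.04 ± 0.0295 FPKM in leaf (SD, n = 2 each). The log2 difference was -0.87 ± 0.162 (SE, limma adjusted p = 0.00261), and it was -2.47 with a pseudocount of 0.1 and -0.24 with 5. Since HAK5 was tested only because its leaf controls reached 1 FPKM, its place in the count is no support for a pattern. HAK16 was at 4.81 ± 0.509 FPKM in root and 6.71 ± 0.287 FPKM in leaf, which is -0.41 ± 0.147 on the log2 scale (SE, limma adjusted p = 0.0426). That call was lost in 8 of 16 alternatives, including without any 1 of the root and leaf control libraries, where the limma adjusted p ranged from 0.0555 to 0.175. HAK10 did not differ beyond the threshold, at 13.7 and 14.6 FPKM in root controls and 12.8 and 13.2 FPKM in leaf controls (limma adjusted p = 0.356).

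Under salt, AKT1 had 16.3 times and HAK1 15.6 times the leaf level in root, with log2 differences of 3.68 ± 0.085 and 3.78 ± 0.091 (SE, limma adjusted p = 2.89e-07 and 3.16e-07). HAK16 was 2.13-fold higher and HAK7 1.60-fold higher in root. For HAK1 the bounds imply 1985 to 2035 fragments in root salt and 284 to 298 in leaf salt. For HAK7 they imply 1324 to 1395 in root salt and 1149 to 1175 in leaf salt. Both differences are smaller than in FPKM, and the cause was not tested. For AKT1 they imply 2449 to 2470 in root salt and 167 to 170 in leaf salt. The SKOR-type channel was 3.31-fold higher in leaf, which is -1.65 ± 0.096 for root minus leaf on the log2 scale (SE, limma adjusted p = 7.79e-06). For this gene and for HAK16 the means of root and leaf thus stood in the opposite order to that in controls. Altogether 4 of 7 tested members were higher in root and 1 was lower, where 47.7% and 24.5% of all tested genes were. HAK10 stood at 16.4 ± 1.78 FPKM in root and 16.3 ± 0.240 FPKM in leaf (SD, n = 2 each), and HAK5 overlapped between the tissues. Neither passed the threshold (limma adjusted p = 0.985 and 0.214).

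**Figure D5:**
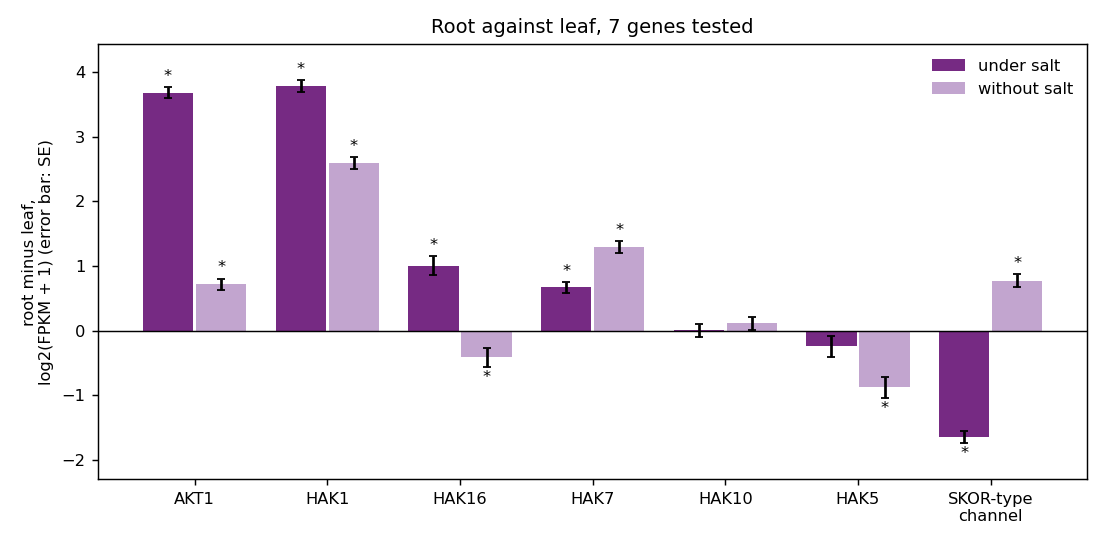
Root minus leaf on the log2(FPKM + 1) scale for the 7 tested genes, under salt and without salt. Bars are limma estimates, error bars are SE, and asterisks mark adjusted p under 0.05. The SKOR-type channel stands at -1.65 under salt and 0.77 without, and AKT1 at 3.68 under salt and 0.72 without.

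The order of the 8 levels differed between groups. In root salt it ran HAK1, HAK7, AKT1, HAK16, HAK10, SKOR-type channel, HAK21 and HAK5, and the neighbours HAK16 and HAK10 overlapped. In root controls it ran HAK7, HAK1, SKOR-type channel, AKT1, HAK10, HAK16, HAK5 and HAK21, with no neighbours overlapping, although AKT1 and HAK10 were under 1 FPKM apart. In leaf salt it ran HAK7, SKOR-type channel, HAK10, HAK16, HAK1, AKT1, HAK5 and HAK21, with HAK16 and HAK1 overlapping. In leaf controls it ran HAK7, HAK10, SKOR-type channel, HAK1, AKT1, HAK16, HAK5 and HAK21, with HAK1 and AKT1 overlapping. HAK7 stood above at least 96.2% of all genes in every library. AKT1 stood above 95.9% and 95.6% of genes in root salt libraries, against 85.8% in both root controls, and above 72.2% and 72.3% in leaf salt libraries, against 79.8% and 80.2% in leaf controls.

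Other genes followed the same courses over the 8 libraries, as found by the highest Pearson correlation of log2(FPKM + 1) among 18082 genes. The libraries fall into 4 groups of 2, so these values describe a likeness of group means and carry no p. Closest to AKT1 was LOC_Os02g36710 (r = 0.999), with means of 74.8 FPKM in root salt, 40.1 in root control, 20.6 in leaf salt and 31.6 in leaf control. Closest to HAK1 was LOC_Os04g55220 (r = 0.999), and closest to HAK7 was LOC_Os02g10880 (r = 0.999), which fell in salt-treated roots to 47.3 FPKM, against 125 FPKM in root controls. Closest to the SKOR-type channel was LOC_Os10g28680 (r = 0.992), with 9.34 FPKM in root salt, 14.3 in root control, 32.4 in leaf salt and 7.79 in leaf control. No source used here gives names to these 4 identifiers.

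Of the 32 identifiers that lie within 2 places of a member on its chromosome, 16 were tested. Of these 16, 1 rose and 1 fell in salt-treated roots, where 29.1% and 14.4% of all tested genes did. In leaf, 2 rose and 2 fell, beside 14.8% and 18.9% of all tested genes. The identifier directly before HAK16, picked out after its values were seen, had a leaf mean of 25.5 FPKM with salt, against 8.21 FPKM in controls, a log2 change of 1.52 that passed the threshold. Its root means were 0.0533 FPKM with salt and 0.0812 FPKM in controls.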

How the data were processed

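The deposited tables, 1 per library, hold FPKM with confidence bounds on both sides, in the layout of Cufflinks gene tracking per the file headers. The tools named in the submitters' processing notes are Cuffdiff, Cufflinks (2.2.1) and TopHat2 (2.0.13). The sources used here give no build, annotation, strandedness or depth, so reads shared with related or overlapping genes remain uncertain. The square of 2 × FPKM, divided by the squared distance to the upper bound, gave the implied fragments. This reads the bounds as counting error only. For HAK1 and HAK7 the implied fragments did not keep the same proportion to FPKM across groups, so they are not plain counts there.

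Entries off the 12 chromosomes (0 to 185 per library) and 9 entries of identifiers at several loci were left out. Genes with at least 1 FPKM in 2 of 8 libraries were tested on log2(FPKM + 1), without further scaling, in 1 limma 3.58.1 model (R 4.3.3) of 4 group means with a mean-variance trend, so all groups share 1 estimate of the spread. The 5 contrasts were salt against control in each tissue, their difference, and root against leaf with and without salt. Alternatives were pseudocount, filter, scaling, a model of the compared groups, a replicate block and each library left out.

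The 8 members, the lists and the tests were chosen with earlier results of these data known. None of the 55797 identifiers stands in the RefSeq table (0 matched), so member names come from the selection, 6 of them also in that table, and a list of further potassium transport genes was not used. Named besides the members are the genes nearest in pattern, up to 2 that rose and 2 that fell in root, taken in order of the member's mean level. Without names, tissue marker genes could not be checked.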

Additional observations from a re-analysis of the deposited data

Results flagged for a closer look

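For 5 of the 7 tested genes, limma's interaction term of tissue by treatment passed the threshold, so the response to salt was not the same in root as in leaf. The difference, root minus leaf on the log2(FPKM + 1) scale, was 2.96 for AKT1, 1.19 for HAK1 and 1.41 for HAK16. It was -0.63 for HAK7 and -2.42 for the SKOR-type channel. Each of these 5 differences kept its direction and its call under all 15 alternatives run for it. Both libraries of each salt group lay on the stated side of both controls in root for all 5 genes, and in leaf for AKT1, HAK1 and the SKOR-type channel. The leaf groups of HAK16 and HAK7 did not overlap either, although their leaf changes were not called.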

How the results depend on the processing

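In root, 3 members rose and 2 fell under every alternative run, except that 4 rose with no filter (HAK21 added) and with a pseudocount of 0.1 (HAK5 added). In leaf, 1 member rose, and 2 did (HAK10 added) with a mean of at least 5 FPKM, after scaling to the 75th percentile, in a model of the compared groups alone, and in the fits without root salt replicate 1 or 2 (1 to 2 over libraries left out). Members lower in leaf numbered 2, and 1 (HAK1 lost) after quantile normalization, in the model of the compared groups and in 3 of the fits with a library left out (1 to 2). Members lower in root controls than in leaf controls numbered 2. They numbered 1 with a pseudocount of 5, with no filter, with a mean of at least 5 FPKM, after quantile normalization and with the replicate block, and 1 to 2 with a library left out. With a mean of at least 5 FPKM the gene lost was HAK5, which was then not tested, and otherwise it was HAK16. Under salt 1 member was lower in root, and 2 were after quantile normalization (HAK5 added), while 4 were higher in root, and 5 with no filter (HAK21 added). For the difference between tissues 3 members were higher, and 4 with no filter (HAK21 added) and without leaf salt replicate 2 (HAK5 added). HAK10 in root against leaf under salt, 0.0025 on the log2 scale, turned to -0.19 with libraries scaled to their 75th percentile and to -0.21 with quantile normalization, and ranged from -0.10 to 0.11 with a library left out. The causes were not tested, other than where fewer genes were tested. No weight is placed on the added calls of HAK5, tested only through its leaf controls, or of HAK21, listed at 0 in root controls.

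Over all genes, 3412 were lower in root, and 5262 after quantile normalization and 2257 without root salt replicate 1. In leaf 4504 were lower and 3523 higher, and 2820 to 2934 and 2251 to 2541 without a leaf library. For the difference between tissues 5496 were higher and 2309 lower, and 3619 and 3852 after quantile normalization, with 1504 lower without leaf salt replicate 2.

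Deviations of libraries with the same replicate number correlated at 0.21 between root control and root salt. Between the other pairs of groups the correlations ran from -0.02 to 0.07. What the root libraries of the same replicate number have in common was not tested. With the replicate block, 1 member in place of 2 was lower in root controls, and no other member call changed.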
